A study of Mus musculus with 2 samples.

Results

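The mitochondrial respiratory chain genes described here are the 86 nuclear protein-coding gene entries of the GENCODE M21 annotation whose symbol starts with Ndufa, Ndufb, Ndufc, Ndufs, Ndufv, Uqcr, Cox4 to Cox8 or Atp5, or is Sdha, Sdhb, Sdhc or Sdhd. Names starting with Ndufaf, which are assembly factors, were left out. The entries carry 85 symbols, since Atp5o is annotated on chromosome 16 as 2 entries, and they stand among 21755 protein-coding genes on chromosomes 1 to 19 and X. Members were picked by gene name and not by a measured value, but the naming rule was chosen with earlier results of these data known. Chromatin accessibility was measured by DNase-seq in whole adrenal glands of female B6CASTF1/J mice, a first-generation hybrid strain, aged 4 days. The 1 group has 2 libraries, labelled biological replicates 1 and 2, whose labels mention 3 females per sample and share a donor identifier, so the spread between the libraries may be partly technical. No comparison between groups can be made, as this group is the whole study.

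The respiratory chain sits in the inner mitochondrial membrane. Complex I takes electrons from NADH and complex II from succinate, complex III passes them to cytochrome c, complex IV reduces oxygen, and complex V, the ATP synthase, uses the proton gradient that results. Most subunits are encoded in the nucleus, and the transcription factors NRF1 and YY1 and the ETS factor GABP are known to bind many of their promoters. In the adrenal cortex, electrons also reach mitochondrial cytochrome P450 enzymes that make steroids. A DNase I peak marks a stretch of open chromatin, and a footprint is a short protected stretch, which here need not lie inside a called peak.

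Replicate 1 held 46031 peaks and 98364 footprints, and replicate 2 held 87387 peaks and 141983 footprints. Signal below is the authors' own value for a peak, in deposited units. Neither the scaling of these units nor the read depth is given in the sources used here. A gene is called open when each library had a peak within 1 kb of an annotated transcription start site (TSS) of it, and its signal is that of the strongest such peak in each library. Where a gene is followed by a pair of values, the first is from replicate 1 and the second from replicate 2. Cortex markers were open at 3 of 9 genes (Nr5a1, Scarb1 and Cyp11a1), and their summed signal was 5.83 in replicate 1 and 19 in replicate 2. These sums include Star with 2.73 and Cyp21a1 with 1.12 in replicate 2 only, and Cyp11b2 with 0.298 in replicate 1 only. Cyp11b1, Hsd3b1 and Mc2r had no peak in either library. Chromaffin markers were open at 2 of 6 (Chga and Chgb), with summed signals of 4.82 in replicate 1 and 12.6 in replicate 2, and Th, Dbh and Pnmt had no peak. In whole glands, fewer cells of a type and less open chromatin per cell cannot be told apart.

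Because the NRF1 string gave the most footprinted matches at these promoters, examples from each complex are shown first. The string searched was GCGCNTGCG on both strands, in the 200 bp to either side of the principal TSS, which is the 1 annotated start chosen per gene. Each 30-base sequence below is from the RefSeq reference GRCm38.p6 (mm10), 5′ to 3′ on the gene's own strand, with the match in capitals. All lay in a footprint of both libraries. Ndufb4 and Sdha are shown with all of their matches because each had 3 that do not overlap, all footprinted by at least 1 base. Some were covered in part: the first Sdha match had 2 bases in a footprint in replicate 1 and 6 in replicate 2. The third Sdha match had 4 and 9, and the third Ndufb4 match 9 and 4. The first Ndufb4 match did not lie in a peak of both libraries.
Ndufa8 (chr2:36049350-36049379, minus strand): cctagagcagtGCGCTTGCGcgtcgctgga
Ndufb4 (chr16:37654540-37654569, minus strand): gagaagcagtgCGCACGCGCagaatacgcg
Ndufb4 (chr16:37654428-37654457, minus strand): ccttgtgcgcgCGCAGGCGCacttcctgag
Ndufb4 (chr16:37654371-37654400, minus strand): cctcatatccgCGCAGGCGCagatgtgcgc
Sdha (chr13:74350319-74350348, minus strand): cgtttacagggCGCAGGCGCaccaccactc
Sdha (chr13:74350276-74350305, minus strand): ggggcgtgttgCGCAGGCGCagaatcttcc
Sdha (chr13:74350231-74350260, minus strand): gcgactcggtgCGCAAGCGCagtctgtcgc
Uqcrc1 (chr9:108936668-108936697, plus strand): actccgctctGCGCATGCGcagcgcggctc
Cox6a1 (chr5:115349056-115349085, minus strand): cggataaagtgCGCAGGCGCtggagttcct
Atp5mpl (chr12:111967052-111967081, minus strand): gcgctgtggtgCGCAGGCGCggaaggccgg
Atp5h (chr11:115420041-115420070, minus strand): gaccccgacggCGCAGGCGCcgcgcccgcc

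At Ndufa11, a subunit of the membrane arm of complex I, the match formed a palindrome 65 bp upstream of the TSS, so that the string was found on both strands. The 40 bases around it overlap no annotated exon, and the capitals mark the joined matches, which were footprinted in both libraries.
Ndufa11 (chr17:56717687-56717726, plus strand): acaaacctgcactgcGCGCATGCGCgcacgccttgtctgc

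The YY1 string was AANATGGC. The 5 genes listed first had a match that lay both on an annotated start codon, the ATG within the capitals, and in a footprint of both libraries. A match counts from 1 protected base: Ndufc1 had 8 bases in a footprint in replicate 1 and 5 in replicate 2, Uqcrb 4 and 4, Ndufb8 3 and 4, Ndufa7 3 and 1, and Ndufs7 1 and 1. Of these 5, Ndufc1 and Uqcrb alone had at least 50% of the match covered in both libraries. Ndufa4l2 is added as a gene with the same arrangement and no peak.
Ndufb8 (chr19:44555386-44555415, minus strand): cggagaaggtgAAGATGGCtgccgcccggg
Ndufc1 (chr3:51408915-51408944, minus strand): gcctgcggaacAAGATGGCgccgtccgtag
Ndufs7 (chr10:80249462-80249491, plus strand): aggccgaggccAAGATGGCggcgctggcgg
Uqcrb (chr13:66905296-66905325, minus strand): actctcaggtcAAAATGGCgggccgatctg
Ndufa7 (chr17:33824616-33824645, plus strand): ggagcggaaggAATATGGCgtccgctactc
Ndufa4l2 (chr10:127514968-127514997, plus strand): gacactgggacAAGATGGCaggaactagtc

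The ETS string was CCGGAAGT, or ACTTCCGG on the other strand. Uqcrh, the hinge protein of complex III, is shown because it had the only ETS match of these genes in a footprint of both libraries. It lay 10 bp upstream of the TSS and had 8 bases in a footprint in replicate 1 and 3 in replicate 2.
Uqcrh (chr4:116075063-116075092, minus strand): gagtatgccgcACTTCCGGccaggtcgccg

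Nearly all respiratory chain promoters were open. Of the 86 entries 79 were open (91.9%), against 61.3% of all protein-coding genes. In each of the 79 the peaks of the libraries overlapped by at least 1 bp. Such an overlap was found at 60.8% of all protein-coding genes, so nearly all open genes had it. Another 6 lacked a TSS peak in both libraries, while Cox4i2 had one in replicate 2 only. Among the 78 entries that are not tissue-restricted isoforms 77 were open, the exception being the second entry of Atp5o. That entry spans chr16:91684398-91926982 on the minus strand, its TSS lies inside the locus of the first, and its nearest peak was 4379 bp away in replicate 1 and 4459 bp away in replicate 2.

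Open respiratory chain promoters had a median signal of 2.61 in replicate 1 and 5.39 in replicate 2, against 2.11 in replicate 1 and 4.33 in replicate 2 over all open genes. The members ran between 0.725 and 4.86 in replicate 1 and between 0.932 and 12.3 in replicate 2. Their median percentile, the position among all open protein-coding genes of the same library, was 65.6 in replicate 1 and 63.6 in replicate 2. Above the median of all open genes lay 58 members in replicate 1, 53 in replicate 2 and 49 in both. In both libraries 6 lay in the top 10% and 1, Cox7b, in the bottom 10%, so most members sat in the middle and upper range of open promoters. Signal was higher in replicate 2 at 79 of 79 open members, with a median ratio of 2.02, against 2.05 over all open genes. The order of the members was much the same in both libraries, with a Spearman coefficient of 0.873 across the 79, against 0.938 across all open genes. Genes are not independent replicates and these coefficients are descriptions.

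**Figure D1:**
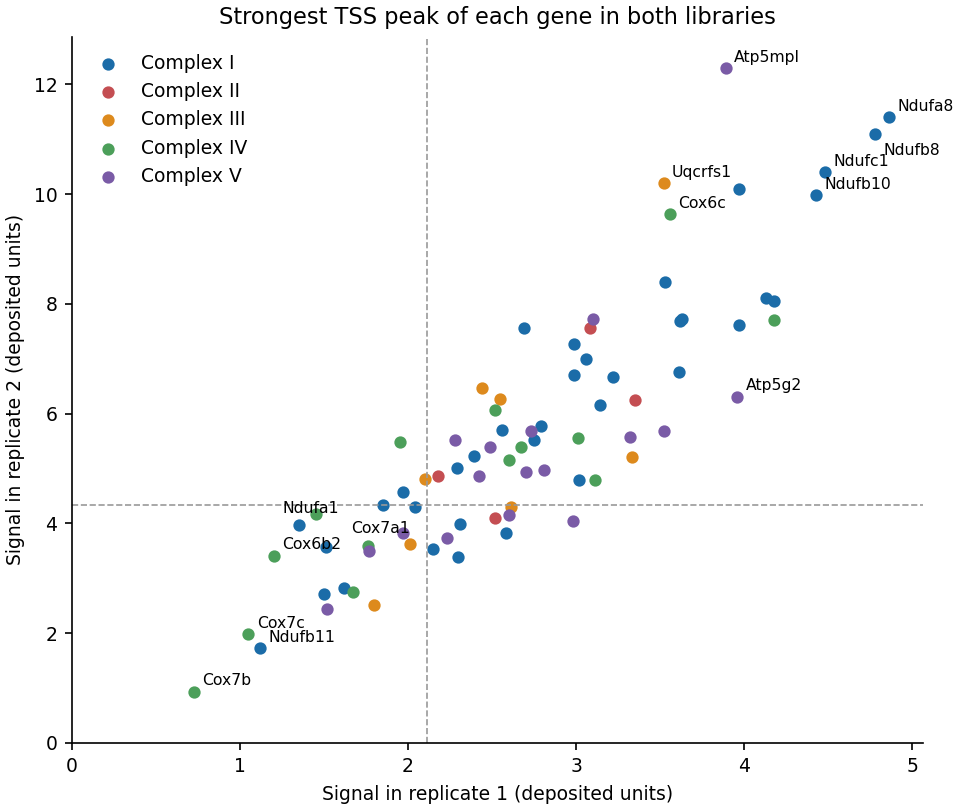
Signal of the strongest TSS peak of each of the 79 open respiratory chain genes in replicate 1 (horizontal axis) and replicate 2 (vertical axis), in deposited units, coloured by complex; dashed lines mark the medians of all open protein-coding genes, 2.11 and 4.33. Ndufa8, Ndufb8 and Atp5mpl stand at the upper right, and Cox7b, Ndufb11 and Cox7c at the lower left.

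Complex I, the NADH dehydrogenase, had the highest median signal of the 5 complexes in both libraries. All 36 of its genes were open, with medians of 2.89 in replicate 1 and 5.96 in replicate 2. Within it, the 29 accessory subunits had medians of 2.99 and 6.71 in replicates 1 and 2, and the 7 core subunits, which carry the flavin and the iron-sulfur clusters, had 2.58 and 4.34. Among the core subunits, Ndufs1, the largest protein of the matrix arm, had 3.22 in replicate 1 and 6.66 in replicate 2. Ndufs7 had 3.02 in replicate 1 and 4.79 in replicate 2. The flavin-binding subunit Ndufv1 had 2.31 and 3.98, its neighbour in the complex Ndufv2 2.58 and 3.82, Ndufs3 1.85 and 4.34, and Ndufs8 2.15 and 3.53 in replicates 1 and 2. Of the core subunits named here, Ndufs1 was the highest in both libraries. The accessory range of 1.72 to 11.4 in replicate 2 contained that of the core.

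The members with the strongest peaks were mostly accessory subunits of complex I. Ndufa8, an intermembrane-space subunit, had 4.86 in replicate 1 and 11.4 in replicate 2. Ndufb8 had 4.78 and 11.1, and Ndufc1 4.48 and 10.4, in replicates 1 and 2. The lowest percentile of these 3 among open genes was 96.4, that of Ndufc1 in replicate 2. Ndufb10 reached 4.43 in replicate 1 and 9.98 in replicate 2, and Ndufb7 3.97 in replicate 1 and 10.1 in replicate 2. Ndufa7 had 4.13 in replicate 1 and 8.11 in replicate 2. A start site of Rps28, which encodes a ribosomal protein, lies within 1 kb of the Ndufa7 start. Outside complex I, Atp5mpl, a small subunit of the ATP synthase, had the highest replicate 2 value of all members, 12.3, with 3.89 in replicate 1. Uqcrfs1, the Rieske iron-sulfur protein of complex III, had 3.52 in replicate 1 and 10.2 in replicate 2. Cox6c, a structural subunit of complex IV, had 3.56 in replicate 1 and 9.63 in replicate 2.

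Ndufa13 also ranked among the 10 highest, at 4.18 in replicate 1 and 8.06 in replicate 2, but that peak was not at its principal TSS. The peak centre lay over 500 bp upstream, where Tssk6 and Yjefn3 also have start sites within 1 kb of the Ndufa13 start. Within 200 bp of its own principal TSS, Ndufa13 reached a signal of only 0.964 in replicate 1 and 1.28 in replicate 2. The same distinction applied to few other members. A peak within 200 bp of the principal TSS was present in both libraries at 76 of the 86 entries, against 52.5% of all protein-coding genes, and the 3 open members without one were Atp5f1, Atp5j2 and Ndufa5. The strongest peak was centred within 150 bp of the principal TSS in both libraries at 64 of the 79 open members. The share over all open genes was not computed, so this count describes the members only.

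At the low end, Cox7b, an X-linked subunit of complex IV, had 0.725 in replicate 1 and 0.932 in replicate 2. Ndufb11, an X-linked accessory subunit of complex I, had 1.12 and 1.72 in replicates 1 and 2. Cox7c, of complex IV, had 1.05 in replicate 1 and 1.98 in replicate 2. Atp5l, subunit g of the ATP synthase, had 1.52 in replicate 1 and 2.44 in replicate 2, and Ndufc2, of complex I, 1.5 and 2.71. Each of these 5 lay below the median of all open genes in both libraries. The 3 X-linked members, with Ndufa1 at 1.35 in replicate 1 and 3.97 in replicate 2 as the third, had a median signal of 1.12 in replicate 1 and 1.72 in replicate 2. Open X-linked protein-coding genes as a whole, 409 of 948, had medians of 1.09 in replicate 1 and 2.09 in replicate 2, so the X-linked members lay near the level of their chromosome.

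**Figure D2:**
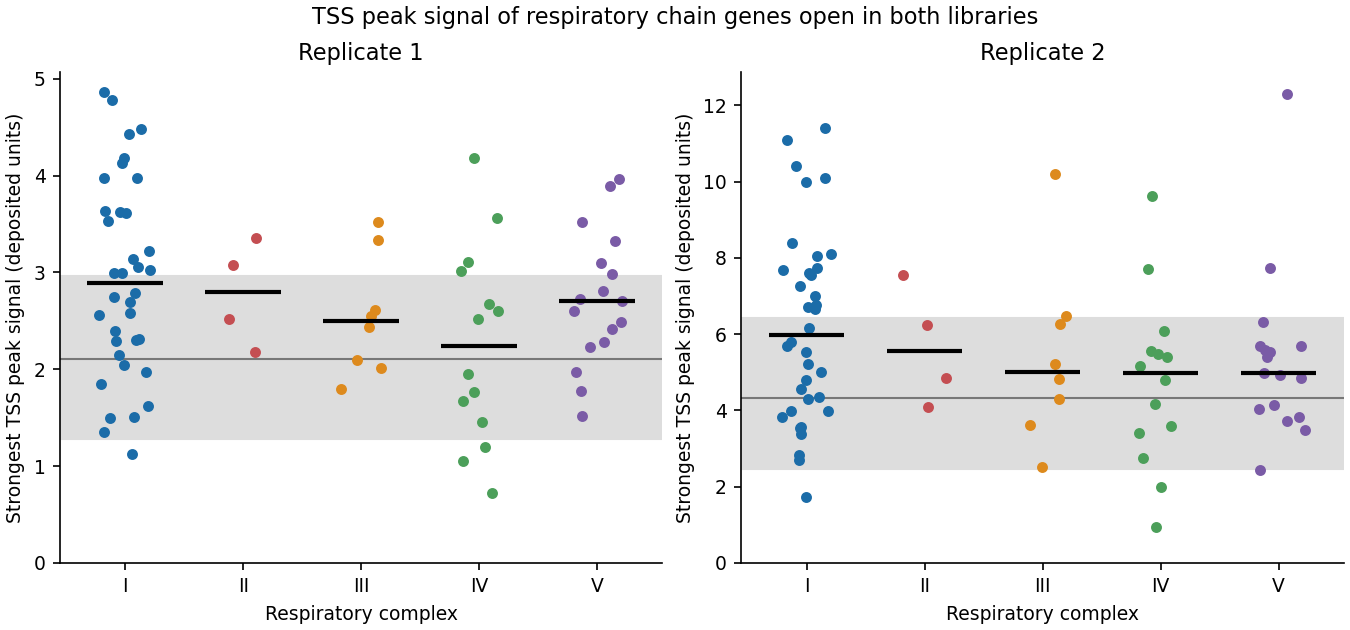
Signal of the strongest TSS peak of each open respiratory chain gene by complex, in deposited units, 1 panel per library; each point is a gene, the short bar is the median of the complex, the grey line is the median of all open protein-coding genes and the grey band their middle 50%. Complex I has the highest median in both libraries, 2.89 and 5.96, and all complexes overlap.

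Complex II, succinate dehydrogenase, is built from 4 nuclear genes and all were open. Sdha, the flavoprotein, had 3.35 in replicate 1 and 6.25 in replicate 2. Sdhb, the iron-sulfur subunit, had 2.52 and 4.09. The membrane anchors Sdhc and Sdhd had 3.08 and 2.18 in replicate 1, and 7.56 and 4.86 in replicate 2. All 4 exceeded the median of all open genes in replicate 1, and Sdhb was just below it in replicate 2.

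All 8 genes of complex III were open, with medians of 2.49 in replicate 1 and 5.01 in replicate 2. Uqcrfs1 stood at the top of the complex. The large core proteins differed, with Uqcrc1 at 2.55 in replicate 1 and 6.26 in replicate 2, and Uqcrc2 at 2.01 in replicate 1 and 3.62 in replicate 2. The small subunit Uqcrq had 2.44 in replicate 1 and 6.47 in replicate 2, Uqcr10 2.61 and 4.29, and Uqcr11 2.1 and 4.81. Uqcrh had 3.33 in replicate 1 and 5.21 in replicate 2, but within 200 bp of its principal TSS 1.47 and 2.03. Uqcrb, the ubiquinone-binding protein, was the lowest, at 1.8 in replicate 1 and 2.52 in replicate 2. The cytochrome c1 gene Cyc1, which belongs to the complex but falls outside the naming rule, was open at 1.48 in replicate 1 and 2.89 in replicate 2.

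Complex V was open at 17 of 18 entries, with medians of 2.7 in replicate 1 and 4.98 in replicate 2. By their strongest peaks, the 5 genes of the catalytic F1 head lay close together in replicate 2. Atp5a1, the alpha subunit, had 2.7 in replicate 1 and 4.94 in replicate 2, and Atp5b, the catalytic beta subunit, had 2.42 and 4.86. The gamma subunit gene Atp5c1 had 3.52 in replicate 1 and 5.68 in replicate 2, Atp5d, delta, 2.49 and 5.4, and Atp5e, epsilon, 2.73 and 5.69. All 5 values exceeded the median of open genes in both libraries. The Atp5d peak lay over 500 bp upstream, however. Within 200 bp of its principal TSS the signal was 1.63 in replicate 1 and 3.91 in replicate 2, below those medians. The Atp5a1 peak was centred 271.5 bp downstream of its principal TSS in replicate 1 and 241.5 bp in replicate 2. At that TSS itself, replicate 1 had a weaker peak of 0.964, and in replicate 2 the nearest peak was 152 bp away. The 4 open genes of the peripheral stalk were spread more widely, with Atp5h at 2.81 in replicate 1 and 4.98 in replicate 2, Atp5f1 at 2.28 and 5.52, and the first Atp5o entry, the oligomycin sensitivity protein, at 1.77 and 3.49. Their medians, with Atp5j, were 2.12 in replicate 1 and 4.4 in replicate 2. The Atp5f1 peak was centred 788.5 bp downstream of its principal TSS in replicate 1 and 758.5 bp in replicate 2. Within 200 bp of that TSS, Atp5f1 had no peak in replicate 1 and a signal of 0.572 in replicate 2. The c-ring is encoded by 3 genes whose mature proteins are the same. Atp5g2 had the strongest peak of them, at 3.96 in replicate 1 and 6.31 in replicate 2. Atp5g1 had 2.6 in replicate 1 and 4.15 in replicate 2, and Atp5g3 had 2.98 in replicate 1 and 4.04 in replicate 2, so their order differed between the libraries. Atp5j, coupling factor 6 of the stalk, had 1.97 in replicate 1 and 3.82 in replicate 2. Its replicate 1 peak was centred 754.5 bp downstream of the principal TSS, and the signal within 200 bp was 1.79 in that library. Atp5j2, subunit f of the membrane part and unrelated to Atp5j despite its symbol, had 2.23 in replicate 1 and 3.73 in replicate 2. Its peak was centred over 500 bp downstream of the principal TSS, and neither library had a peak within 200 bp of that TSS.

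Complex IV, cytochrome c oxidase, had the lowest share of open promoters, 14 of 20, and all of its closed promoters belonged to tissue-restricted isoforms. Without these, 12 of 12 were open, with medians of 2.56 in replicate 1 and 5.28 in replicate 2. Of the 8 restricted isoforms only 2, Cox6b2 and Cox7a1, were open. The 8 broadly expressed genes paired with them, counting Ndufa4 with its relative Ndufa4l2 as part of complex IV, were all open.

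The isoforms known from striated muscle were mostly closed. Cox6a2 lacked a TSS peak in both libraries, whereas its broad counterpart Cox6a1 had 4.18 in replicate 1 and 7.71 in replicate 2. Cox8b, another muscle and brown fat isoform, had none, and Cox8a had 2.67 in replicate 1 and 5.39 in replicate 2. Cox7a1, the heart and muscle form of subunit 7a, was open, at 1.76 in replicate 1 and 3.59 in replicate 2. Its broad counterpart Cox7a2 had 2.52 in replicate 1 and 6.07 in replicate 2, and Cox7a2l, a related protein that joins complexes III and IV, had 1.45 in replicate 1 and 4.17 in replicate 2. The Cox7a1 peak of replicate 2 lay at chr7:30184061-30184240, over the TSS. Skeletal muscle markers were open at 2 of 8 genes, Actn3 with 3.23 in replicate 1 and 7.26 in replicate 2 and Ckm with 1.63 and 5.32; their summed signal was 4.86 in replicate 1 and 12.6 in replicate 2. Neither peak was at the principal TSS: in both libraries its centre lay at -752 bp at Actn3 and, near another annotated start, at -5444 bp at Ckm, where negative is upstream. Acta1, Myod1 and the myosin genes Myh1, Myh2 and Myh4 lacked TSS peaks in both libraries. Heart markers were at 0 of 4 genes and 0 signal in both libraries. Brown fat markers were open at 2 of 5, with summed signals of 1.97 in replicate 1 and 4.16 in replicate 2, which include Ppargc1a in replicate 1 only and Elovl3 in replicate 2 only, and Ucp1 had no peak. The part of these cell types in the Cox7a1 peak was not tested.

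The testis isoforms differed among themselves. Cox6b2 was open, at 1.2 in replicate 1 and 3.41 in replicate 2, although its replicate 1 peak was missing from the shorter, stricter list. Its replicate 2 peak lay at chr7:4753041-4753220. The broad form Cox6b1 had 1.67 in replicate 1 and 2.74 in replicate 2, so the isoform with the higher value was not the same in the libraries. Cox7b2 and Cox8c lacked TSS peaks in both libraries, and none of the 5 testis markers had one. These include Prm1, Tnp1 and the germ-cell cytochrome c gene Cyct, while the somatic Cycs had 3.91 in replicate 1 and 9.32 in replicate 2.

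The isoforms known to respond to low oxygen were closed or nearly so. Cox4i2 had no peak in replicate 1 and a weak one in replicate 2, at chr2:152754059-152754162. That peak had a signal of 0.818, and the lowest false discovery rate in the window was 0.0113. Its counterpart Cox4i1 had 2.6 in replicate 1 and 5.16 in replicate 2. Ndufa4l2 had no TSS peak, and Ndufa4 had 1.95 in replicate 1 and 5.49 in replicate 2. The nearest peak to the Ndufa4l2 start was 1887 bp away in both libraries, and it was strong, at 2.77 in replicate 1 and 7.1 in replicate 2. At the members with no TSS peak in either library, no position within 1 kb had a deposited false discovery rate under 0.05.

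**Figure D3:**
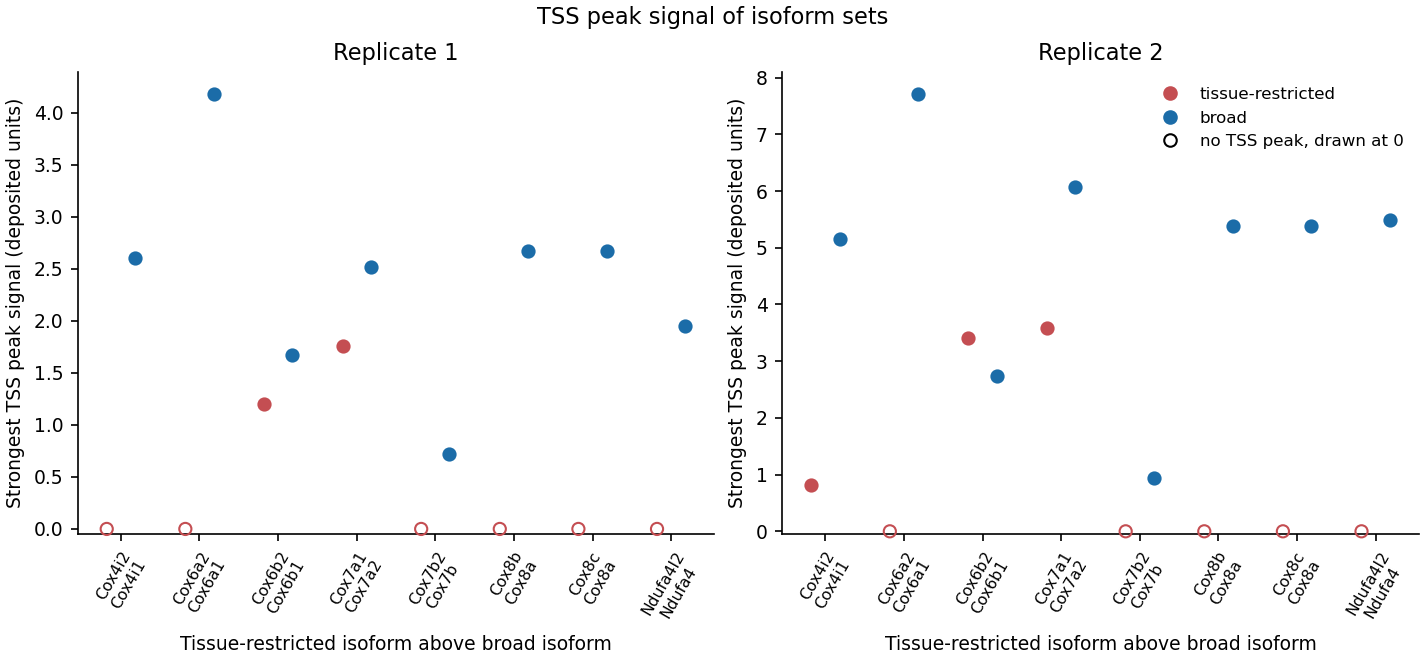
Signal of the strongest TSS peak, in deposited units, at the tissue-restricted (red) and broad (blue) isoforms of complex IV in replicate 1 and replicate 2, 1 panel per library; an open symbol at 0 marks a promoter with no TSS peak in that library. Cox6a2, Cox7b2, Cox8b, Cox8c and Ndufa4l2 sit at 0 in both libraries, and Cox4i2 in replicate 1.

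Promoters of the 7 members not open in both libraries had fewer CpG dinucleotides than the typical member, though not uniquely so. Their ratio of observed to expected CpG in the 200 bp to either side of the principal TSS ran between 0.159 and 0.578. The median was 0.803 over all members, 0.799 over all open protein-coding genes and 0.622 over all protein-coding genes. Cox4i2 at 0.557, Cox7b2 at 0.511 and Cox8c at 0.578 thus lay not far below the median of all genes. Under 0.4 lay 4 open and 4 closed members, and 3 of these open members, Atp5j2 at 0.181, Atp5f1 at 0.261 and Ndufa5 at 0.38, are the ones with no peak in both libraries within 200 bp of the principal TSS. Cox7a1, with a ratio of 0.385, and Cox6b2, with 0.428, had their peak at the TSS. CpG content and openness thus went together only in part among the members. The share of all genes under 0.4 was not computed, and the relation was not tested.

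NRF1 and YY1 strings were each found at 25 of the 86 promoters (29.1%). Over all protein-coding promoters the NRF1 string was found at 9.4% and the YY1 string at 8.57%, and over all open ones at 14.6% for NRF1 and 10.9% for YY1. The ETS string was found at 9 members (10.5%), against 5.65% of all promoters and 8.57% of open ones. At least 1 of the 3 strings stood at 49 members and none at 37, and NRF1 and YY1 stood together at 5. Of all 21755 protein-coding promoters, 4526 held at least 1 of the 3 strings and 277 held both NRF1 and YY1. The YY1 and ETS counts depend on the letters chosen. With 1 more G the YY1 string was found at 15 members and 4.46% of all promoters, and with 1 letter fewer the ETS string was found at 20 members and 13.3% of all promoters.

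Among strings searched for comparison, the Sp1 string GGGCGG stood at 46 members (53.5%), against 51.9% of all promoters and 72.5% of open ones. CCAAT stood at 31 members (36%), against 42.2% of all promoters and 39.8% of open ones. The cyclic AMP response string TGACGTCA stood at 5 members (5.81%), against 2.6% of all promoters and 3.5% of open ones. It lay in footprints of both libraries at 3 of them, wholly at Ndufb2 and Uqcrfs1 and in part at Ndufa10. The string TCAAGGTCA, read by estrogen-related receptors and by the steroidogenic factor SF-1, stood at Atp5g3, Ndufa2 and Sdhd (3.49%), against 0.464% of all promoters and 0.307% of open ones. None of those 3 matches touched a footprint. The TATA string TATAAA stood at 10 members (11.6%), against 13.3% of all promoters and 6.65% of open ones, and among the open members it stood at 10.1%.

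**Figure D4:**
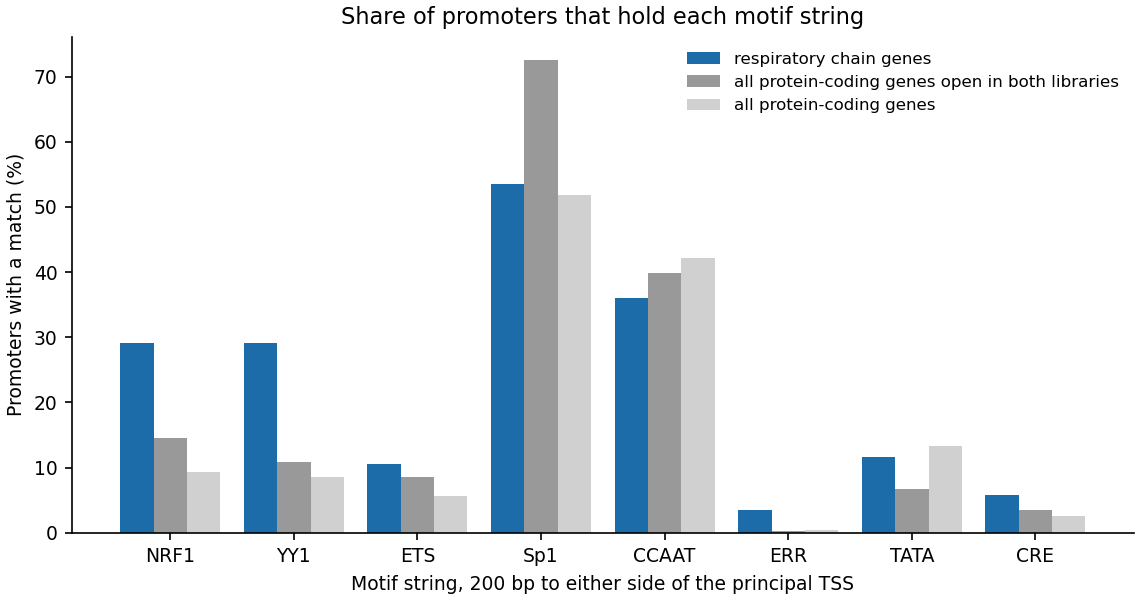
Share of promoters (%) with each of the 8 motif strings within 200 bp of the principal TSS, for the respiratory chain genes, all open protein-coding genes and all protein-coding genes. NRF1 and YY1 stand at 29.1% of the respiratory chain genes each, against 9.4% and 8.57% of all genes.

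The strings were spread unevenly over the complexes. Complex I had YY1 at 15 of 36 promoters, NRF1 at 9 and ETS at 2. None of its 7 core subunit genes had an NRF1 match and 5 had a YY1 match. Complex V showed the opposite order, with NRF1 at 8 of 18, YY1 at 3 and ETS at 1. Complex II had NRF1 at 2 of 4, Sdha and Sdhd, and YY1 at Sdhc. Complex III had 3 of 8 with each string, and complex IV 3 of 20 with each. These counts are small and the difference between complexes was not tested.

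Members with a match had somewhat stronger peaks. The 47 open members with any of the 3 strings had medians of 2.99 in replicate 1 and 5.7 in replicate 2, against 2.3 and 4.37 for the 32 open members with none. Those with NRF1 but not YY1 had 3.14 in replicate 1 and 5.78 in replicate 2, and those with YY1 but not NRF1 had 2.99 and 5.39. All open protein-coding genes with an NRF1 string also stood above the general median, at 2.76 in replicate 1 and 5.57 in replicate 2. Of the 49 members with a string 47 were open (95.9%), and of the 37 without one 32 were (86.5%). The 2 exceptions with a string were Cox8b, which held an NRF1 string, and Ndufa4l2, which held the YY1 string printed above. Over all protein-coding genes 95.5% of those with the NRF1 string were open, 93% of those with the ETS string and 78.3% of those with the YY1 string.

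YY1 matches lay mostly just downstream of the TSS, on the coding strand and on the start codon. Of the 26 matches 20 began 0 to 99 bp downstream (76.9%), against 45.2% of matches over all promoters, and 19 stood on the gene's own strand (73.1%), against 60.1%. The ATG of 16 of the 26 was the annotated start codon (61.5%), against 27% over all promoters. The string itself contains ATG, and its part in this placement was not tested. NRF1 matches fell on both sides of the TSS. Of 39 matches 20 began 0 to 99 bp downstream (51.3%), against 21.9% over all promoters, and 17 were on the gene's own strand.

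**Figure D5:**
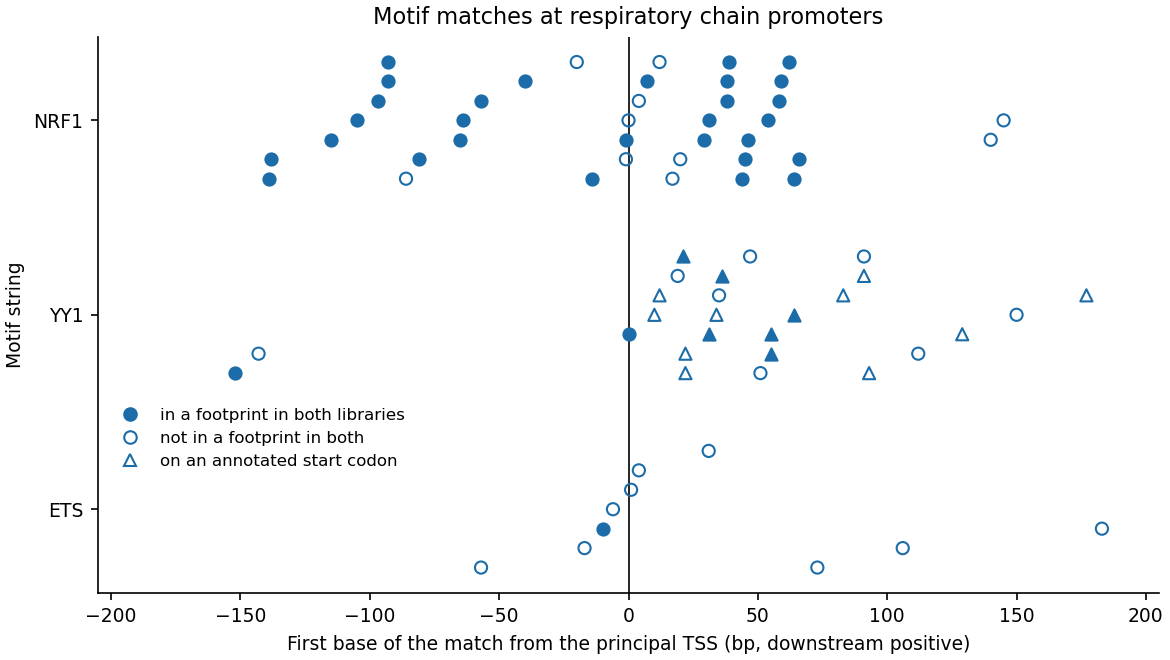
Position of each NRF1, YY1 and ETS match at the respiratory chain promoters relative to the principal TSS (bp, downstream positive); filled symbols lay in a footprint of both libraries, open symbols did not, triangles mark YY1 matches on an annotated start codon, and height within a row has no meaning. NRF1 matches are mostly filled and lie on either side of the start, and 20 of the 26 YY1 matches begin 0 to 99 bp downstream.

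All 79 open members had a footprint within 1 kb of a TSS in both libraries, against 59% of all protein-coding genes and 96.3% of open ones. Within 200 bp of the principal TSS, 73 members had a footprint in both, against 47.1% of all protein-coding genes. The median there was 4 footprints in replicate 1 and 3 in replicate 2, the same as or 1 above the 3 of all open genes in each library. By the sum of both libraries, the 5 members with the most footprints in the TSS windows were led by Ndufa11, with 11 in replicate 1 and 13 in replicate 2. Atp5g2 and Atp5j each had 14 in replicate 1 and 9 in replicate 2, and Ndufa13 had 10 in each. Uqcrh had 14 in replicate 1 but 4 in replicate 2, so its rank rested on the first library. Genes with several annotated starts have wider windows, which adds to such counts.

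Of the 49 members with a match, 27 had it in a footprint of both libraries, against 35.7% of all protein-coding promoters with a match and 40.8% of open ones. The strings differed. NRF1 matches were footprinted in both libraries at 19 of 25 members (76%), against 57.4% of all promoters with the string and 59.8% of the other open ones. After overlapping matches were joined, 25 of 34 NRF1 sites were footprinted (73.5%), against 54.1%. The highest-ranked genes of this kind were Ndufa8, Atp5mpl, Ndufb10 and Cox6c. YY1 matches were footprinted at 7 of 25 members (28%), against 11.6% of all promoters with the string and 14.6% of the other open ones. Of the 16 matches on a start codon 6 were footprinted (37.5%), among them those printed above for Ndufb8, Ndufc1, Ndufs7, Uqcrb and Ndufa7. The share over all promoters, open or closed, was 9.8%. For start codon matches the share over open promoters alone was not computed. At Ndufb5 the 2 matches, 1 upstream of the TSS and 1 at it, were footprinted without lying on a start codon. ETS matches were footprinted at 1 of 9 members (11.1%), against 24.5% of all promoters with the string.

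Many of these genes start close to another gene on the opposite strand. Of the 86 entries 30 had the TSS of another protein-coding gene within 1 kb of the principal TSS, all 30 on the opposite strand, against 12.6% of all protein-coding genes and 18.5% of open ones. The partners named here were picked after the list was seen. Sdhd has as its neighbour Timm8b, which encodes a protein import factor of the intermembrane space. Ndufs6 and Ndufb5 have the mitochondrial ribosomal protein genes Mrpl36 and Mrpl47. The neighbour of Atp5j is Gabpa, the DNA-binding subunit of GABP. The 2 genes had the same strongest peak values, 1.97 in replicate 1 and 3.82 in replicate 2. The strongest peak was not the same one in the libraries. It lay at chr16:84834681-84835060 in replicate 1 and at chr16:84835561-84835760 in replicate 2. For such pairs the signal cannot be assigned to 1 of the genes, and whether the genes of a pair share a promoter was not tested.

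The genes that build and regulate the chain were open to a like extent. Assembly factors were open at 48 of 49, with medians of 2.79 in replicate 1 and 6.31 in replicate 2, and the exception was Sdhaf1. Citric acid cycle and pyruvate dehydrogenase genes were open at 18 of 18, with medians of 2.71 and 6.32. Regulators were open at 23 of 24, with medians of 2.46 and 5.94. Nrf1 itself had 3.16 in replicate 1 and 6.2 in replicate 2, Yy1 had 4.49 and 7.66, and Tfam, the mitochondrial transcription factor, had 3.56 and 8.54. Esrra, an estrogen-related receptor, had 3.93 in replicate 1 and 11.8 in replicate 2. Others were weak, with Mterf1a at 0.52 and 0.449, and the receptors Esrrb at 0.631 and 0.836 and Esrrg at 1.07 and 2.18. Ppargc1a, a coactivator of mitochondrial genes, was the exception, with a weak peak of 0.367 in replicate 1 and none in replicate 2.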

How the data were processed

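Peaks, footprints and false discovery rates of the local cut rate were used as the authors deposited them, per library, on mm10 per the labels. The deposited peak signal is the authors' value per peak. The deposited false discovery rates are adjusted p-values of at most 0.05, and the deposited footprints all carry 0.01, taken as a p-value threshold. The longer of the peak lists of each library was used, and the shorter served as an alternative. Peak caller, filters and read depth have no mention in the labels or headers, so no counting error could be computed.

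TSSs came from the GENCODE M21 annotation and sequence from RefSeq GRCm38.p6. The principal TSS was chosen by APPRIS tag, basic tag, transcript support level and length. Strings were searched on both strands of the 401 bp around it, for 8 motifs. A match counted as footprinted when it overlapped a deposited footprint by at least 1 bp in each library. Tools were samtools 1.23.1, pysam 0.24.0, numpy 2.4.6, pandas 2.3.3, scipy 1.17.1 and matplotlib 3.10.9, and the search and overlap steps were checked on simulated data. Named genes are the 10 highest and 5 lowest open members by mean signal, all closed members, the isoform sets, the Sdh genes, the 5 with most footprints and up to 10 with a footprinted match. Other genes named were chosen after their values were seen. The members and gene lists were chosen with earlier results of these data known. Alleles of the hybrid were not separated, chromosome Y and unplaced sequence were left out, and no test was run. The values of 1 member are counted in the totals and not reported here on their own.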

Additional observations from a re-analysis of the deposited data

How the results depend on the processing

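The count of open respiratory chain genes stayed between 75 and 81 over the alternatives: 78 with the shorter peak lists, 79 with 500 bp to either side or the principal TSS alone, 81 with 2.5 kb, 79 when peaks had to overlap by 1 bp and 75 when they had to overlap by 50%. With 1 library left out it was 79 to 80. Over all protein-coding genes the open share ran between 54.8% and 66.3% across the same alternatives. The median signal of open members stayed between 2.6 and 2.64 in replicate 1 and between 5.22 and 5.4 in replicate 2. Footprints in both libraries ranged between 73 and 79 members, and footprinted matches between 19, when 50% of the match had to be covered, and 32, in replicate 1 alone. The shares over all protein-coding genes were 47.1% to 64.1% for footprints and, among promoters with a match, 28.3% to 46.4% for footprinted matches. NRF1 counts ranged between 23 and 31, and the share over all promoters between 7.01% and 13%. The 2 counts that moved by over 1.5 times were YY1, 15 with the string AANATGGCG against 25, and ETS, 20 with the string CCGGAAG against 9. The share over all promoters moved with them, to 4.46% and 13.3%.

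No paired analysis was possible because there is a single group. With 2 libraries and no depth, a weak peak present in 1 library, such as that of Cox4i2, cannot be told apart from a difference in depth.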
